A study of Mus musculus with 884 samples.

Results

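Chromosome 13 outside its 60960001 to 68640000 stretch (mm9 build) was described here as the mouse autosome whose replication timing differed most between naive embryonic stem cells and the seventh day of differentiation. It comprised 1407 bins of 80 kb out of 30890 autosomal bins. The remaining 96 of the 1503 bins on the chromosome lay in the excluded stretch. Chromosome 13 was selected on measured values of these cells, the share of bins that changed between day 0 and day 7 (22.8% of compared bins, rank 1 of 19 autosomes). That ranking is therefore a description and supports nothing below. Bins with a value in all 8 cell states numbered 1361, or 96.7% of the set. The bins without one were mostly the 37 at the start of the chromosome, 1 to 2960000, and 8 at 92160001 to 92800000.

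Mammalian chromosomes are copied in large domains that fire their origins at characteristic times in S phase. Early-replicating domains tend to be gene-rich, open and interior in the nucleus, whereas late-replicating domains tend to be gene-poor, compact and near the nuclear lamina. When pluripotent cells become committed, some domains switch between early and late replication, and others fuse into longer blocks of uniform timing. Single-cell Repli-seq reads this from cells sorted during S phase: each genome is amplified and sequenced, and each bin receives a call of replicated or unreplicated.

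The cells came from the CBMS1 female embryonic stem cell line, a hybrid of the CBA and MsM mouse strains. They were taken in 2i/LIF medium (d0), which keeps stem cells naive, and on each day of differentiation from d2 to d7. Differentiation passed through epiblast-like cells for 2 days and then through floating aggregates in GK15 medium. Epiblast stem cells (EpiSCs), which model the later, primed epiblast and were kept with Activin and FGF, came from the C57BL6 strain, so cell state and strain cannot be told apart in every EpiSC comparison. Labels gave 877 of 884 cells a state, 805 in S phase and 72 in G1. No label named separate cultures, so each of the 8 states was 1 sample, no test was run, and cells were not counted as replicates.

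Comparisons of timing used the 293 cells in S phase whose deposited replication score, the share of autosomal bins replicated, lay between 40 and 70%. There were 59 such cells at d0, then, day by day from d2 to d6, 35, 13, 18, 20 and 21, and 26 among EpiSCs. The d7 cells, more numerous than those of any other state, were 35 from a previous series and 66 from the present one. At the edges of the interval, the nearest cells inside scored 40.1% and 69.8% and the nearest outside 39.8% and 70.1%. The share of a state's cells that had replicated a bin served as its timing: in mid S phase a high share means early and a low share late replication. Values given below in day order run from d0 through d2 to d7. Each of these cells had at least 1244 of the member bins called. In G1 cells, which should have replicated nothing, a median of 0% of chromosome 13 was called replicated, with 42 of 72 cells at 0 and a highest value of 8.60%. Intervals beside cell numbers are 95% intervals by the exact Clopper-Pearson method and cover counting error only.

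Before the comparisons, 3 features of the libraries bear on them. First, 50 of the 59 d0 cells came from the previous series. The 9 present-series d0 cells differed from these by 0.3 or more in share in 19.4% of 1362 chromosome 13 bins, and on the other autosomes in 22.7% of bins, whereas the same contrast within d7 gave 6 bins (0.440%). Second, 7 of the 293 cells, 3 of them at d0, 1 at d4 and 3 at d7, did not rank the bins as the other cells do (area under the curve below 0.8), and all 7 were of the present series; without the 3 at d0, the d0 contrast fell to 9.25% of bins. Last, 2 d7 cells had 95.4% and 98.7% of chromosome 13 called replicated beside 49.6% and 56.2% of the other autosomes. A chromosome stood over 30 points above the rest of its cell in 0 to 4 cells for each autosome. Shares of changed bins and named changed regions are given with and without such cells where that moves them. Domains, the time course, transient bins and the index are given with all cells.

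Chromosome 13 fell behind the other autosomes in early S phase and ran ahead of them in late S phase. In cells with scores of 20 to 40%, its replicated share minus that of the other autosomes was on average -8.02 points at d0 (SD over cells 2.91, 42 cells), -7.31 points at d7 (SD 3.33, 23 cells) and -5.76 points in EpiSCs (SD 3.44, 11 cells). In all 8 states together, 8.96% of such cells had a higher share on chromosome 13 than elsewhere. Its mean there ranked 3 to 9 from the lowest of the 19 autosomes, so other autosomes lagged further. In cells with scores of 80 to 95% the order had turned. The difference was then 9.09 points at d0 (SD 1.95, 15 cells), 10.3 points at d7 (SD 3.5, 30 cells) and 9.06 points in EpiSCs (SD 2.14, 9 cells). Chromosome 13 was ahead in 100% of the cells in this interval and in 99 of 99 cells with scores of 70 to 80%. Among the 19 autosomes its mean ranked 18 or 19 from the lowest in each state at scores of 80 to 95%. In the earliest cells, with scores of 5 to 20%, the means of the states ran from -8.40 to 0.016 points, and 9 of 66 cells were ahead. There d2, at -1.04 points (SD 9.05, 18 cells), and d3, at 0.016 points (SD 13.1, 6 cells), had the widest spread over cells.

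**Figure D1:**
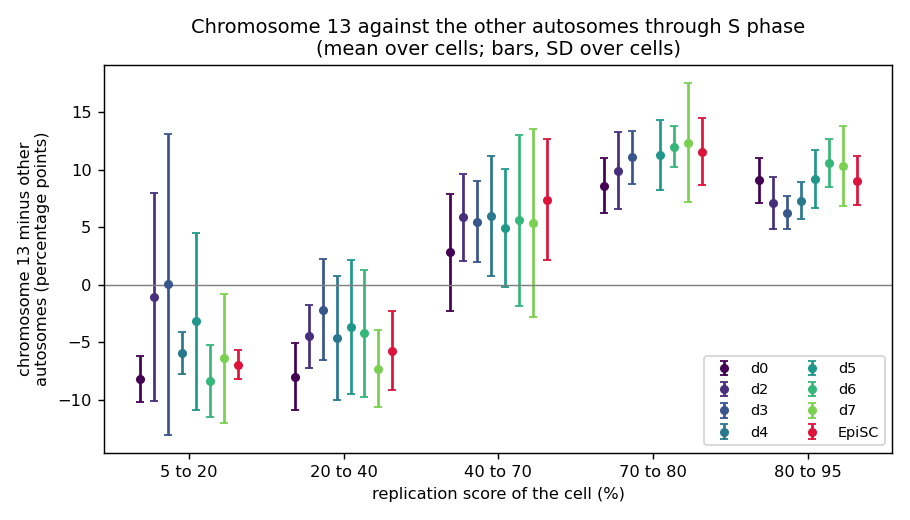
Difference in replicated share between chromosome 13 and the other autosomes, in percentage points, for cells grouped by replication score (horizontal axis, %); points are means over the cells of a state and bars the SD over cells. The means lie below 0 at scores of 20 to 40% and above 0 at scores of 40% and more in each state shown; d4 had too few cells to be drawn at scores of 70 to 80%.

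The same concentration in mid S phase appeared bin by bin. The midpoint of a bin is the replication score at which 50% of cells have copied it, fitted over S-phase cells with scores of 5 to 95%. At d0, 34.7% of chromosome 13 bins had a midpoint of 40 to 60%, compared with 22.4% on the other autosomes. At d7 the shares were 38.3% and 22.9%, and in EpiSCs 35.9% and 20.8%. Over the 8 states the chromosome 13 share ran from 32.5 to 40.0% and ranked first of 19 autosomes in each. Both tails were thin. At d0, 12.7% of its bins had midpoints under 25% and 13.1% over 75%, against 23.2% and 24.5% elsewhere. At d7 these fell to 9.39% and 6.09%, against 21.7% and 22.7% elsewhere. The d0 and d7 cells used to pick the chromosome enter these fits. Nothing is therefore read from the shares and ranks at d0 and d7 against the other autosomes.

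Along the chromosome at d0, early and late domains alternated. Splitting bins at a share of 50% gave 58.7% early bins, 50 switches between the classes and 23 early and 20 late domains of at least 5 bins. Their median lengths were 1600 and 1440 kb. The longest early domain at d0 ran 9680 kb, chr13:92720001-102400000, with a mean share of 89.5%. The next in length ran 8880 kb, chr13:47840001-56720000, at 88.6%. The longest late domain, 8160 kb at chr13:82080001-90240000, had a mean share of 19.2%. Another late block lay near the distal end at chr13:115600001-119840000, at 12.3%, followed by a 400 kb early domain.

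Several of these blocks were longer or shorter at d7. Early bins made up 64.3% at d7, with 65 switches, and 67.5% in EpiSCs, with 61 switches. The distal early domain reached 12720 kb at d7, chr13:92880001-105600000, and 12800 kb in EpiSCs, chr13:93040001-105840000; at d0 a 720 kb late interval at chr13:102400001-103120000 (mean share 40.3%) had divided that stretch. Within the long late domain of d0, the late domains were 1440 and 5280 kb long at d7, the longer at chr13:84480001-89760000 with a mean share of 10.2%. In EpiSCs there were 3, of 1600, 2240 and 3200 kb. In the middle of the chromosome, EpiSCs had 1 early domain of 18320 kb, chr13:42560001-60880000, at a mean share of 92.9%. At d7 that stretch was divided by an 880 kb late island at chr13:50080001-50960000, with a mean share of 24.4%. The early domains beside the island ran 9600 kb, chr13:40480001-50080000, and 10000 kb, chr13:50960001-60960000, the second ending at the excluded stretch. On the other days the switches numbered 82 at d2 (35 cells), 91 at d4 (18), 68 at d5 (20) and 76 at d6 (21), with more than these at d3 (13); the part of cell number in these counts was not tested.

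**Figure D2:**
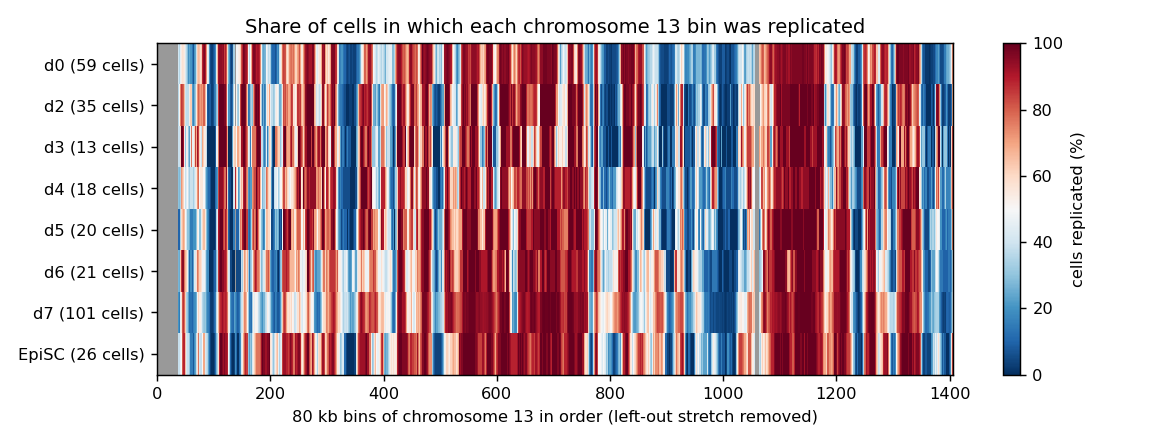
Share of cells (colour, %) in which each chromosome 13 bin was replicated, with bins in order along the horizontal axis and the 8 states as rows; grey bins had no value. The long dark-red block of bins near the right keeps its colour in each row, and blue blocks left of it narrow between d0 (longest late domain 8160 kb) and d7 (5280 kb).

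Constant bins were counted next; since the chromosome was picked for change between d0 and d7, which are among the 8 states, nothing is read from their number against other autosomes. A share of 0.8 or more in all 8 states was found in 254 of 1361 chromosome 13 bins (18.7%), beside 25.8% of all autosomal bins. A share of 0.2 or less in all 8 states was found in 77 bins (5.66%), beside 14.1% of all autosomal bins. The longest constantly early run, 4080 kb at chr13:97680001-101760000, had mean shares between 95.2% at d0 and 98.6% at d5. It had been replicated in 58 of 59 d0 cells, in 100% of d7 cells and in 26 of 26 EpiSCs. Next in length were chr13:54080001-56080000, with 96.7% at d0 and 99% at d7, chr13:95200001-96720000, with 95.1% and 95.9%, and chr13:44320001-45360000, with 93.7% and 97.3%. The longest constantly late run, 1200 kb at chr13:87440001-88640000, was replicated in 2 of 59 d0 cells, 1 of 100 d7 cells and 1 of 26 EpiSCs. The next 3 late runs were chr13:7440001-8320000, chr13:79680001-80560000 and chr13:88720001-89520000. Their mean shares were 8.63%, 6.78% and 9.18% at d0 and 6.58%, 14.6% and 4.97% at d7.

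Between d0 and d7, 14.2 Mb of chromosome 13 (13% of 1362 bins compared) became earlier by a share of 0.3 or more, beside 7.75% of all autosomal bins. The mean share of these bins went from 28.8% to 75.2%. Another 10.7 Mb (9.84%) became later, beside 7.71% of all autosomal bins, with a mean share that went from 78.2% to 34.7%. The chromosome was picked on these values, so nothing is read from them against the other autosomes. The median difference over the 1362 bins was 1.81 points. With previous-series cells alone 16.4% of chromosome 13 bins became earlier and 10.7% later, beside 10.1% and 7.86% of all autosomal bins. With present-series cells alone the shares were 12.4% and 12.8%, beside 12.4% and 15.1% of all autosomal bins, so chromosome 13 did not exceed all autosomes there. By a shift of 30 points in the midpoint, 2.17% became earlier and 1.32% later, beside 1.57% and 2.23% of all autosomal bins. Of the 223 bins that became earlier in previous-series cells, 83.4% had the same direction in present-series cells, but 39% passed 0.3 there; their present-series means were 46.01% at d0 and 66.7% at d7. Of the bins that became later in previous-series cells, 96.6% had the same direction in present-series cells and 60.96% passed, with present-series means of 74.5% and 39.7%.

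At d0, 17.3% of chromosome 13 bins were late (share of 0.2 or less), against 29.1% on the other autosomes, and 43.02% lay between the classes, against 27.8%. By d7, 61 of the 235 late bins had become earlier (25.96%), beside 12.02% of late bins on the other autosomes. Of the 541 early bins (0.8 or more), 75 had become later (13.9%), beside 9.12% on the other autosomes. A change of 0.3 the other way is not possible in these classes. Of the bins in between, 19.8% became earlier and 10.1% later, beside 14.5% and 12.5% on the other autosomes. The chromosome was picked for change between d0 and d7, so nothing is read from these shares against the other autosomes. Cut into 4 stretches of equal length, the chromosome changed in 30.2% of bins in the proximal stretch (1 to 30060000), 20.2% in the next, 37.5% in the one at 60120001 to 90180000 and 7.63% in the distal one. Losses prevailed in the proximal stretch (25 bins earlier and 77 later) and gains at 60120001 to 90180000 (78 and 27).

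Adjacent changed bins formed 13 earlier regions of 400 to 2320 kb and 7 later regions of 480 to 2160 kb. Flanking bins at d0 were early on both sides of 2 of the 13 earlier regions, on one side of 5 and on neither side of 5, and 1 had no value. Midpoints fitted in cells with scores outside 40 to 70%, 98 at d0 and 88 at d7, use no cell of the comparison. By these, 13 of 13 earlier regions had a lower midpoint at d7, with shifts of -40.3 to -3 points, and 7 of 7 later regions a higher one, with shifts of 0.5 to 24 points. With no cell at scores of 40 to 70%, a midpoint inside that interval is only loosely set, and nothing is read from small shifts. The smallest were at chr13:56640001-58000000 (44% at d0 and 41% at d7) and chr13:13200001-14720000 (39% and 39.5%). For these regions the outside cells showed almost no shift.

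The earlier regions differed in when they changed. The one with the largest mean difference, chr13:60160001-60960000, borders the excluded stretch. The last member bin beside that edge had shares of 13.6% at d0 and 62.4% at d7, and the first excluded bin 11.9% and 30.7%. At d0, 13 of 59 cells had copied it (22%, 95% interval 12.3 to 34.7%). From d2 to d6 it was replicated in 21 of 35, 8 of 13, 14 of 18, 18 of 20 and 19 of 21 cells, and at d7 in 95 cells (94.1%, 87.5 to 97.8%). More than 50% of cells had thus copied it from d2 on, and EpiSCs were lower than d7, with 14 of 26 cells. Its mean share at d0 was 27.2% in previous-series cells and 50% in present-series cells. In the present-series d0 cells that follow the profile it was 58.3%, beside 63.4% at d2, where all cells were of the present series. The part of series in its step from d0 to d2 was not tested. More than 50% of cells from d2 on had also copied chr13:28000001-29120000, which was replicated in 8 of 59 d0 cells (13.6%, 6.04 to 25%). Its mean share at d0 was 21.9% in previous-series cells and 33.6% in present-series cells, beside 63.9% at d2. From d2 to d6 the counts were 29 of 35, 9 of 13, 12 of 18, 15 of 20 and 11 of 21 cells, and at d7 81 cells (80.2%, 71.1 to 87.5%); in EpiSCs it was 23 of 26.

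Other regions waited. The 1600 kb at chr13:78000001-79600000 were replicated in 2 of 59 cells at d0 (3.39%, 0.413 to 11.7%) and, from d2 to d5, in 0 of 35, 0 of 13, 2 of 18 and 4 of 20. Counts were then 14 of 21 at d6 and 81 cells at d7 (80.2%, 71.1 to 87.5%), and 16 of 26 EpiSCs had replicated it. The longest earlier region, 2320 kb at chr13:70800001-73120000, was replicated in 2 of 59 cells at d0, and from d2 to d6 in 0 of 35, 0 of 13, 2 of 18, 9 of 20 and 10 of 21. At d7 it was replicated in 64 cells (63.4%, 53.2 to 72.7%). In EpiSCs the count was 3 of 26 (11.5%, 2.45 to 30.2%). Both regions lay in late domains at d0, apart from 1 end of the second, between 76560001 and 81600000 and between 70160001 and 73040000.

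The other 2 earlier regions filled gaps in the d0 profile. At chr13:41760001-42880000, mean shares in day order were 32.4, 39.8, 48.9, 59.9, 62.9, 69.4 and 81.3%, with 70.6% in EpiSCs. At chr13:56640001-58000000 they were 42.2, 50.3, 52, 87.9, 80.6, 86.6 and 89.7%, with 88.9% in EpiSCs. At d0 both had been mostly late gaps between early domains, and at d7 they lay inside the long early domains on either side of the late island. The 6 earlier regions differed less in present-series cells, where the difference between d0 and d7 was 29.1 to 36.8 points, than in previous-series cells, where it was 54.1 to 65.5 points. Without the present-series cells that did not follow the profile, the range in present-series cells was 21.1 to 43.8 points.

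Of the 6 later regions, 4 still had mean shares of 73.1 to 83.5% at d4. The first to fall was chr13:6320001-7200000, replicated in 51 of 59 d0 cells (86.4%, 75.02 to 93.96%) and, from d2 to d6, in 26 of 35, 7 of 13, 6 of 18, 11 of 20 and 10 of 21. At d7 it was replicated in 27 of 100 cells (18.6 to 36.8%), and in EpiSCs in 14 of 26. The 1920 kb at chr13:74560001-76480000 were replicated in 56 of 59 d0 cells (94.9%, 85.9 to 98.9%), then in 35 of 35, 13 of 13, 13 of 18, 10 of 20 and 8 of 21 from d2 to d6, and in 31 at d7 (30.7%, 21.9 to 40.7%). EpiSCs kept more of this early timing, with 20 of 26 cells. The longest later region, 2160 kb at chr13:21600001-23760000, was replicated in 49 of 59 d0 cells (83.1%, 71.03 to 91.6%) and, from d2 to d5, in 30 of 35, 12 of 13, 17 of 18 and 17 of 20. It was then replicated in 10 of 21 cells at d6 and 34 at d7 (33.7%, 24.6 to 43.8%). Its difference between d0 and d7 was -45.3 points in previous-series cells and -26.5 points in present-series cells, or -47.1 points without the present-series cells that did not follow the profile.

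The drop came latest at chr13:13200001-14720000. There mean shares in day order were 85.7, 71.7, 80.2, 73.1, 70.3, 62.9 and 38.2%, with 63.8% in EpiSCs. At chr13:11120001-11840000 they were 52.8, 51.8, 63.2, 45.7, 26.3, 4.23 and 14.9%. With 9.90% in EpiSCs, it was the only one of these 6 later regions that was lower in EpiSCs than at d7. The late island at chr13:50160001-50800000 was replicated in 40 of 58 d0 cells (68.97%, 55.5 to 80.5%) and, from d2 to d6, in 30 of 35, 13 of 13, 14 of 18, 8 of 20 and 6 of 21. At d7 it was replicated in 17 cells (16.8%, 10.1 to 25.6%). EpiSCs lay above d0 here, with 23 of 26 cells (88.5%, 69.8 to 97.6%).

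**Figure D3:**
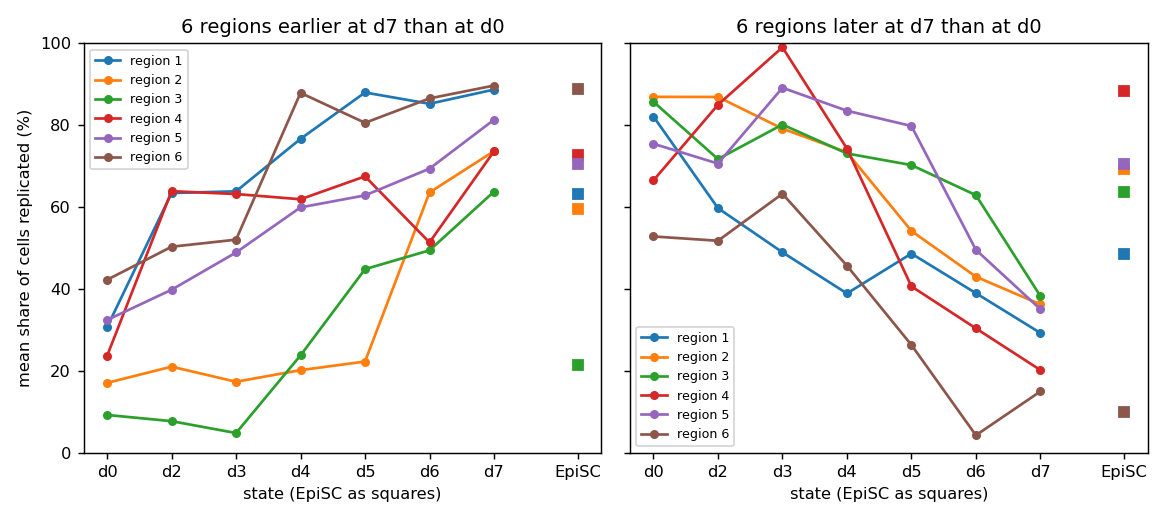
Mean share of cells replicated (%, vertical axis) in the 6 earlier (left) and 6 later (right) chromosome 13 regions with the largest d0-to-d7 differences, by state; circles joined by lines are the days and squares the EpiSCs. Earlier region 2 stays between 17 and 22.2% until d5 and reaches 63.6% at d6, while later region 4 climbs to 99% at d3 before it drops to 20.2% at d7.

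By the shares in these cells, losses on chromosome 13 came later in the course than losses on the other autosomes. Of the change in mean share between d0 and d7, the later bins of chromosome 13 had covered 13.8% by d2, 2.86% by d3, 24.1% by d4, 41.6% by d5 and 80.1% by d6. On the other autosomes later bins had covered 40.2, 30.1, 57.7, 65.8 and 91.5% on those days. With d0 and d7 cells matched in score to each day, the losses stood at 2.87, -5.95, 10.6, 35.4 and 67.8% on chromosome 13, against 28.5, 18.9, 46.99, 65.4 and 83.9% elsewhere. As a whole, the chromosome stood above the other autosomes by 2.80 points on average at d0. At d2, d3 and d4 it stood 5.87, 5.45 and 5.94 points above, and at d5, d6 and d7 4.91, 5.59 and 5.37 points. Matching by score leaves this offset in, and its part in the course of losses and gains was not tested. Gains on chromosome 13 had covered 17.9, 21.7, 41.4, 56.004 and 77.9% on the same days, and 33.8, 30.9, 56.1, 55.99 and 87.6% with matched scores. They were thus ahead of its losses from d2 to d5, and at d6 with matched scores alone. On the other autosomes gains had covered 2.29% by d2 and 31.7% by d4, or 16.1% and 45.8% with matched scores. EpiSCs stood at 65.6% of the change for the earlier bins of chromosome 13 and at 35.4% for its later bins, against 62.9% and 65.6% on the other autosomes. A bin was taken to cross when its share passed the middle of its d0 and d7 values. The commonest day of crossing was d6 in both directions, for 34.5% of the earlier and 41.04% of the later bins. In the step from d6 to d7, 13 bins (0.954%) became earlier and 17 (1.25%) later by 0.3, beside 1.55% and 0.65% of all autosomal bins. With the 22 d7 cells that share the G1 control of the d6 cells, the counts were 60 (4.41%) and 5 (0.367%), beside 1.72% and 1.02% of all autosomal bins, so the direction that prevailed on chromosome 13 turned. The control profile and the state otherwise mostly changed together and cannot be told apart.

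**Figure D4:**
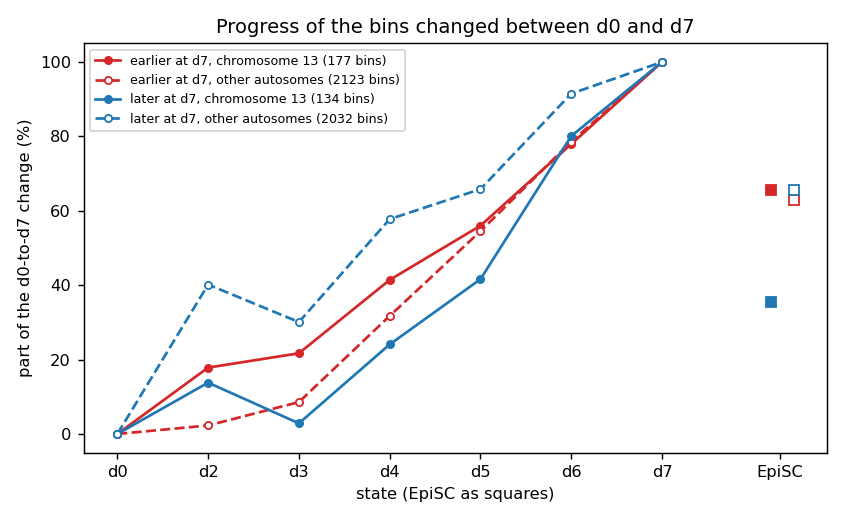
Percentage of the d0-to-d7 change in mean share reached in each state (vertical axis) by bins that became earlier (red) or later (blue) on chromosome 13 (filled, solid lines) and on the other autosomes (open, dashed lines); squares are EpiSCs, offset sideways. The filled blue line of chromosome 13 losses lies below the dashed one from d2 (13.8% against 40.2%) to d6 (80.1% against 91.5%).

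Some bins moved and returned. Shares at d2, d3 and d4 together were higher by 0.3 or more than at both d0 and d7 in 25 chromosome 13 bins (1.84%), beside 0.528% of all autosomal bins. This class was defined after the values were seen, and its share was the highest among the 19 autosomes. Shares were lower in 34 bins (2.498%), beside 2.38% of all autosomal bins, rank 7. The d0 and d7 values on which the chromosome was picked enter these classes, so nothing is read from the ranks. The d2 to d4 cells were all of the present series, and most d0 cells of the previous one. The part of series in these classes was not tested. The longest transiently early run, chr13:85920001-86720000, lies inside the long late domain of d0. It was replicated in 20 of 59 d0 cells and, from d2 to d6, in 26 of 35, 13 of 13, 15 of 18, 5 of 20 and 3 of 21. At d7 it was replicated in 4 of 100 cells, and in EpiSCs in 12 of 26. Near the distal end, chr13:117680001-118240000 was replicated in 7 of 58 d0 cells, then in 34 of 35, 11 of 13, 13 of 18, 10 of 20 and 8 of 21 from d2 to d6, and in 31 (30.7%) at d7. The opposite course was seen at chr13:47600001-48240000, with mean shares in day order of 61.9, 22.5, 22.1, 29.9, 73.8, 79.6 and 81.9%.

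By the shares in these cells, EpiSCs differed from d0 more by gains than by losses. In them 12.6% of 1362 bins (13.8 Mb) were earlier than at d0, beside 7.36% of all autosomal bins, and 92 bins (6.75%) were later, beside 6.34% of all autosomal bins. With the 9 present-series d0 cells alone the shares were 14.8% and 11.01%, beside 13.5% and 13.6% of all autosomal bins. With d0 cells matched in score they were 11.1% and 8.66%, beside 6.45% and 8.39%. By a shift of 30 points in the midpoint they were 1.30% and 0.921%, beside 1.87% and 1.96%. Chromosome 13 as a whole stood above the other autosomes by 2.80 points at d0 and by 7.37 points in EpiSCs. The part of this offset in the gains was not tested. The region with the largest gain was chr13:14720001-16000000. It was replicated in 19 of 59 d0 cells (32.2%, 20.6 to 45.6%), from d2 to d6 in 12 of 35, 2 of 13, 10 of 18, 9 of 20 and 11 of 21, and in 33 cells at d7 (32.7%, 23.7 to 42.7%). In EpiSCs it was replicated in 26 of 26 cells (100%, 86.8 to 100%). The mean share of its bins was 36.5% at d0, 35.9% at d7 and 95.7% in EpiSCs, and the gain over d0 was 37.8 points with present-series d0 cells alone. The other 2 regions named for gains, chr13:28160001-29200000 and chr13:56640001-57360000, overlap ones earlier at d7. Their EpiSC mean shares were 83.4% and 90.6%, and those at d7 80.4% and 92.4%. Among regions later in EpiSCs, chr13:38800001-39360000 was replicated in 37 of 59 d0 cells, 6 of 35 at d2, 0 of 13 at d3, 29.7% of d7 cells and 4 of 26 EpiSCs. The other 2, chr13:74480001-75120000 and chr13:13280001-13840000, had mean shares of 96.6% and 89.6% at d0, 40.97% and 37.5% at d7, and 49.04% and 47.3% in EpiSCs.

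Set directly against EpiSCs, d7 cells were earlier in 66 of 1363 chromosome 13 bins (4.84%), beside 4.90% of all autosomal bins, and later in 11.3 Mb (10.3%), beside 5.74% of all autosomal bins. The earlier share was thus at the background and the later share above it. By a shift of 30 points in the midpoint, 0.747% were later, beside 1.20% of all autosomal bins. The d7 cells were among those used to pick the chromosome. Nothing is therefore read from these shares against the other autosomes. The largest region earlier at d7, chr13:71840001-73360000, was replicated in 76 d7 cells (75.2%, 65.7 to 83.3%) and in 2 of 26 EpiSCs (7.69%, 0.946 to 25.1%); at d0 it was replicated in 6 of 59 cells. Next came chr13:41120001-41680000, at mean shares of 96.2% at d7 and 58.8% in EpiSCs, and chr13:26640001-27120000, at 38.1% and 1.28%. Of the 12 regions later at d7, the 3 with the largest differences were chr13:49920001-50960000, which holds the late island (29.2% at d7, 89.1% in EpiSCs), chr13:14240001-16000000 (35.1% and 91.4%) and chr13:19280001-19760000 (41.6% and 85.9%).

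Cell by cell, the changes on chromosome 13 went with those elsewhere. For each cell an index was taken as the replicated share of the bins earlier at d7 minus that of the bins later at d7. Its median on chromosome 13 in day order was -51.4, -36.8, -37.5, -19.98, 1.06, 20.9 and 43.7 points, and -3.10 points in EpiSCs. Within d5 it ran from -53.96 to 31.7 points over 20 cells and within d6 from -64.2 to 72.8 over 21 cells, so cells of one day ranged widely. Within d6, 2 of 21 cells lay at or below the 95th percentile of d0 cells (-24.6 points), and within d7, 4 cells. Across cells of one state the index of chromosome 13 and that of the other autosomes had Pearson correlations of 0.92 at d4 (18 cells), 0.92 at d5 (20), 0.90 at d6 (21), 0.87 at d7, 0.81 at d0 (59), 0.67 in EpiSCs (26), 0.59 at d3 (13) and 0.57 at d2 (35). These were not computed without the 3 cells at d0, 1 at d4 and 3 at d7 that did not rank the bins as the others do. Both values of a cell share its library and score, so the correlations are descriptions. The bins were chosen on the d0 and d7 cells, so the d0 and d7 medians of the index follow from that choice.

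**Figure D5:**
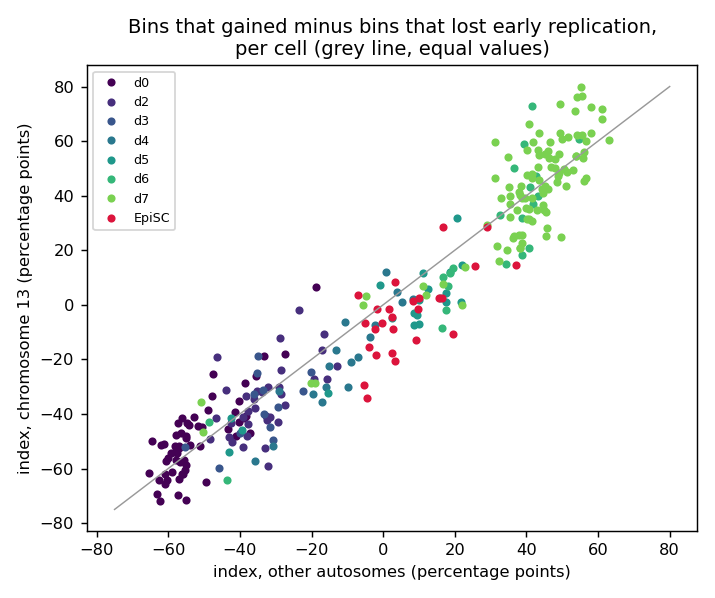
Index of each cell, the replicated share of bins earlier at d7 minus that of bins later at d7 (percentage points), on the other autosomes (horizontal) and on chromosome 13 (vertical), coloured by state; the grey line marks equal values. Cells of d5 and d6 spread along the line, within d6 from -64.2 to 72.8 points on chromosome 13.

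The 6 named regions each way were picked for the largest differences between d0 and d7 in these same cells. Their counts at d0 and d7 follow from that choice and are no separate result. Counted per cell, the median number of the 6 named earlier regions that were replicated was 0, 2, 3, 3, 4, 5 and 5 in day order, and 4 in EpiSCs. All 6 were replicated together in 1 of 57 d0 cells and in 50 d7 cells. Of the 6 named later regions, a median of 5 were replicated at d0 and 1 at d7. None of the later regions was replicated in 0 of 58 d0 cells and in 36 of 100 d7 cells. In EpiSCs the median of the later regions was 4, with 1 of 26 cells at 6.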

How the data were processed

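Single cells were sorted by DNA content, amplified with SeqPlex and sequenced, per the labels' protocols. Cutadapt, BWA 0.7.10-r789, Picard and mm9 are named in the submitters' processing notes, without order or settings. Replication calls per 80 kb bin (1 replicated, -1 unreplicated, 0 without data) were made by the authors against merged G1 controls, per the file headers. The replication score is deposited as a fraction. Smoothing and thresholds set before deposit limit the resolution, and read depth was not used here.

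Groups came from titles; 7 G1 cells with conflicting labels stayed out. A bin needed a call in at least 50% of a state's cells. A difference of 0.3 or more counted as a change, and 5 or more neighbouring changed bins made a region, which a cell had replicated when over 50% of its called bins were. Named regions were the 6 largest each way from d0 to d7, 3 each way for both EpiSC comparisons, and the 4 longest constant runs of each class. Midpoints came from logistic fits allowing 1% wrong calls. The 0.3 rule was tested on simulated independent calls for d0 and d7, and the joining of bins into regions on runs of known length. Members, lists and rules were chosen with earlier results of these data known. Coordinates are those of the files, written 1-based. The gene table used here is of GRCm38.p6, so no gene was placed on a bin and no sequence was read.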

Additional observations from a re-analysis of the deposited data

Results flagged for a closer look

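In 4 named regions, 2 of them overlapping, the difference from d0 had opposite signs at d7 and in EpiSCs, by 10 points or more each way; the difference between the effects was not tested, since each state was 1 sample. At 50160001 to 50800000 the mean share was 21.9 points higher in EpiSCs than at d0 and -46.3 points different at d7, and at 49920001 to 50960000, which holds it, the values were 21.3 and -38.6 points. At 14240001 to 16000000 they were 42.5 and -13.8 points, and at 19280001 to 19760000 they were 22.6 and -21.7 points. Apart from 50160001 to 50800000, these regions were named for their differences between EpiSCs and d7. That choice favours opposite signs. At 50160001 to 50800000 the d0 mean share was 66% in previous-series cells and 78.1% in present-series cells that follow the profile, beside 88.5% in EpiSCs.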

How the results depend on the processing

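For the 6 shares of changed bins, 59 of 78 alternative values lay within 1.5 times the reported one, among them every setting that changed the cells or the filter on bins, except 11.01% later in EpiSCs than at d0 with present-series cells alone. The other 18 came from the size of difference and the measure, given here as earlier and later bins for d0 to d7, d0 to EpiSC and EpiSC to d7. At 0.2 they were 21.1 and 15.3%, 21.7 and 10.8%, and 10.6 and 16.8%. At 0.4 they were 8.08 and 5.51%, 5.58 and 2.79%, and 1.91 and 5.36%. With a shift of 30 points in the midpoint they were 2.17 and 1.32%, 1.30 and 0.921%, and 0 and 0.747%, beside 1.57 and 2.23%, 1.87 and 1.96%, and 0.323 and 1.20% of all autosomal bins; chromosome 13 exceeded all autosomes in 1 of these 6. With regions of 3 or more bins, 12 were later at d7. Matched in score, the later bins at d3 stood at -5.95% of their change, against 2.86%. For the named regions, 53 of 288 alternative values moved beyond the counting interval of the difference (9 of 240 in shares, 44 of 48 in midpoints) and 0 reversed. Midpoint shifts are in points of score and the interval in points of share, so the 44 of 48 compares unlike measures. Shifts as small as 0.5 points were counted as not reversed. Leaving out the 2 d7 cells with nearly all of chromosome 13 replicated, or the cells marked by the authors' filters, was chosen after seeing the data, as were the alternatives for progress through S phase. These kept each direction, but with 3 previous-series d7 cells the value at scores of 20 to 40% was -11.7 points. Numbers of 9 to 21 cells limit the shares of d3 to d6 and of present-series d0 cells. No paired analysis was possible because no test was run and each state was 1 sample.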
